A study of Mus musculus with 21 samples.

Results

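Vascular smooth muscle cells (VSMC, 3 libraries) were compared with tracheal smooth muscle cells (TSMC, 3 libraries) by small RNA sequencing, using 6 of the 21 libraries of a mouse series of 7 cell types. Both groups were chosen by their cell type label, and the mature miRNA entries of the authors' table were the features compared. All 6 libraries came from untreated primary C57BL/6J cells with no engineered allele, grown in DMEM/F12 with 10% fetal bovine serum. The smooth muscle cells were bought from a supplier, and the sources used here gave neither the age and number of the mice nor the vessel, the passage or the purity of the cultures. Intestinal smooth muscle cells (ISMC, 3 libraries), the other bought type, were used to place the values of the first 2 types. The other 12 libraries were peritubular myoid (PTM), Sertoli, Leydig and germ cells of the testis and entered the fit to set the spread. Nothing in the labels tells whether libraries of 1 type were separate cultures or mice, so the p-values measure the spread between these libraries, which may be technical.

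miRNAs are short RNAs of about the length of the sequences printed here that guide Argonaute proteins to partly matching sites in messenger RNAs, mostly through their seed, bases 2 to 8 of the mature strand. Most hairpins can give a 5p and a 3p strand, and the strand that is kept in Argonaute is usually the more abundant one. Smooth muscle cells are best known for miR-143 and miR-145, which maintain the contractile state. The miRNAs inside the Hox clusters, miR-10, miR-196 and miR-615, share the position and often the expression domain of the Hox genes around them, which lay out the head to tail axis, and cells in culture often keep the Hox expression of the site they were taken from. miR-126 is the main miRNA of endothelial cells, which line vessels next to smooth muscle, and miR-455 and miR-140 are best known from cartilage, which lies next to the muscle of the trachea.

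The mature sequences on which the comparison turned are given below from RefSeq (build GRCm38.p6), 5′ to 3′, with the seed in capitals. The first 5 were encoded in Hox clusters and show the pairs that can be told apart by a single base.
miR-10a-5p: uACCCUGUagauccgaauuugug
miR-10b-5p: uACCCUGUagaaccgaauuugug
miR-196a-5p: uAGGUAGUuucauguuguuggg
miR-196b-5p: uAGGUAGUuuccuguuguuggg
miR-615-5p: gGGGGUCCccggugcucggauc
The next 6 include the other abundant miRNAs that were higher in vascular cells, miR-146b-5p, which shares the seed of miR-146a-5p, and miR-31-5p, which was called in the fit of the 6 libraries and not in that of all libraries.
miR-126a-3p: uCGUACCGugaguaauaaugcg
miR-204-5p: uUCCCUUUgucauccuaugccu
miR-146a-5p: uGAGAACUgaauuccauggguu
miR-146b-5p: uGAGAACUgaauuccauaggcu
miR-369-5p: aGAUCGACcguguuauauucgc
miR-31-5p: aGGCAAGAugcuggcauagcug
The last 5 were the abundant miRNAs that were higher in tracheal cells, each with a seed of its own among the called miRNAs.
miR-149-5p: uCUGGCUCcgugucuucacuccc
miR-455-3p: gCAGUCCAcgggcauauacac
miR-184-3p: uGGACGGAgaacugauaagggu
miR-338-5p: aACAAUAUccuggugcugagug
miR-9b-3p: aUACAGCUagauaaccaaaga
Counted from 1 at the 5′ end, with the base of the first named miRNA first, miR-10a-5p and miR-10b-5p differed by U12A, and miR-196a-5p and miR-196b-5p by A12C. miR-146a-5p and miR-146b-5p differed by G18A and U21C. How the authors assigned tags that fit 2 such entries was not given in the sources used here, so the split within these pairs is less certain than their sum.

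The vascular libraries held 21.4 to 23.4 M tags (M, 1e6 tags) and the tracheal libraries 18.1 to 19.2 M, of which 11.4 to 14.6 M and 6.03 to 9.0 M were mature miRNA tags. The mature share of all tags was 58.3 ± 4.68% in vascular and 37.7 ± 8.0% in tracheal cells (SD, n = 3 each), a difference of 20.6 percentage points with no overlap between the types (exact permutation test, two-sided, p = 0.1, the smallest value 3 against 3 can give). rRNA tags made up 1.55 ± 0.143% and 4.22 ± 2.69% and piRNA tags 1.17 ± 0.023% and 1.93 ± 0.257%, also without overlap (exact permutation p = 0.1 each). Levels below are CPM, counts per 1e6 mature tags after TMM scaling, so that this difference in the share of mature tags does not enter them. The Spearman correlation over miRNAs within one pair of libraries averaged 0.959 among vascular libraries, 0.937 among tracheal libraries and 0.908 between the types, which describes libraries that share a count table and is no test. Tracheal library 2, with the highest mature share of its type (46.9%), was nearest to the vascular libraries (0.930), against 0.886 for tracheal library 1 and 0.910 for tracheal library 3.

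The smooth muscle miRNAs miR-143 and miR-145 were compared between the 2 types, since no protein-coding RNA was measured. Without levels of other cell types beside them, this comparison cannot show whether the smooth muscle label holds. miR-143-3p held 17710, 12940 and 16320 CPM in the 3 vascular libraries and 14820, 13550 and 19960 CPM in the 3 tracheal libraries. Its ranges overlapped and its log2 fold change, vascular over tracheal, was -0.04 ± 0.59 (SE; adjusted p = 0.992, Benjamini-Hochberg adjustment of edgeR's quasi-likelihood test over all miRNAs tested, as for every adjusted p below). miR-145a-5p held 1735, 1637 and 775.5 CPM in vascular and 241.4, 958.4 and 460.3 CPM in tracheal cells, ranges that overlapped through vascular library 3 and tracheal library 2 (log2 fold change 1.32 ± 0.71, edgeR adjusted p = 0.279). None of the 4 tested miR-143 and miR-145 entries was called, and the list made up 1.78 ± 0.119% and 1.71 ± 0.292% of mature tags.

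Between the 2 types, 28 of 846 tested miRNAs (3.31%) were called at an adjusted p under 0.05, 10 of them higher in vascular cells (1.18%) and 18 higher in tracheal cells (2.13%). Without vascular library 2 the split was 9 and 5, and with tags of all classes as library size 38 and 8, so the balance of directions turned with these settings. An unadjusted p under 0.05 was reached by 186. The median log2 fold change of all tested miRNAs was 0.01, and the smallest called difference was a log2 fold change of 1.8 in size. In all 28 the CPM of the 2 types did not overlap, which was also true of 39.5% of all tested miRNAs, although 1 of them, miR-338-3p, had a single count in a library of each type. Only 12 of the 28 reached a mean of 50 CPM in the higher type, 7 in vascular and 5 in tracheal cells. With the spread estimated from the 6 libraries alone, where the common dispersion was 0.186 against 0.299 over the 21 libraries, 129 of 676 miRNAs (19.1%) were called, 63 higher in vascular cells (9.32%) and 66 higher in tracheal cells (9.76%). Of the 28, 23 were called there too, all in the same direction, 4 were not tested there and 1, miR-499-5p, was not called.

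**Figure D1:**
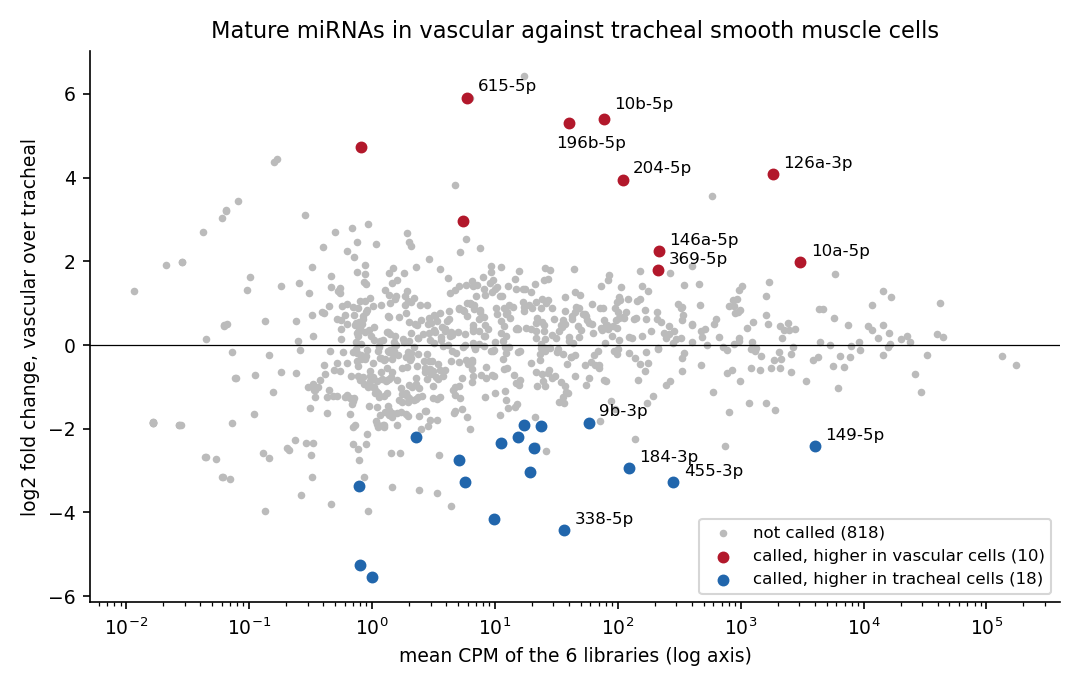
Each point is 1 of the 846 tested miRNAs, with the mean CPM of the 6 vascular and tracheal libraries on a log axis and the log2 fold change, vascular over tracheal, on the vertical axis. The 10 miRNAs called higher in vascular cells (red) include 5 above a log2 fold change of 4, and the 18 called higher in tracheal cells (blue) lie mostly under 50 CPM.

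miRNAs of the Hox clusters were higher in vascular cells, by 3.94-fold for the most abundant one and 42.3-fold for miR-10b-5p. Of its 8 entries 7 passed the filter on low counts and were tested, and 4 of these were called higher (1.18% of all miRNAs were) and none lower. The median log2 fold change of the 6 members read in both types was 3.65, and 4.36 with miR-10b-3p, whose fitted value rests on a type at 0. In all 7 every vascular library lay above every tracheal library, as in 21.9% of all tested miRNAs. In the fit of the 6 libraries 6 of the 6 tested members were called higher, against 9.32% of all miRNAs tested there. Together they made up 0.563 ± 0.0365% of mature tags in vascular cells and 0.139 ± 0.0193% in tracheal cells.

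miR-10a-5p is encoded next to Hoxb4 (chr11:96317186-96317208, intergenic, plus strand) and was the most abundant of the group. It held 5501, 4154 and 4993 CPM in vascular and 1085, 1217 and 1417 CPM in tracheal cells. Every vascular library lay above every tracheal one, with a 3.94-fold difference (log2 1.98 ± 0.47, edgeR adjusted p = 0.0172), but the call was lost when any 1 of 5 of the 6 libraries was left out (highest adjusted p 0.115) and kept without vascular library 2. Its near copy miR-10b-5p lies in an intron of Hoxd3 and Hoxd4 (chr2:74726074-74726096, plus strand). It held 172.5, 126.7 and 153.4 CPM in vascular and 2.37, 3.28 and 5.01 CPM in tracheal cells. The tracheal libraries were close to empty, on 14, 33 and 31 counts, and the difference was 42.3-fold (log2 5.40 ± 0.61, edgeR adjusted p = 7.13e-06). miR-10b-5p stood at 3.05 to 3.13% of miR-10a-5p in the vascular libraries and at 0.218 to 0.354% in the tracheal libraries. Summed, the 2 miRNAs of this seed reached 5030 CPM in vascular and 1240 CPM in tracheal cells, a ratio of 4.05. The passenger strand miR-10a-3p held 47.7, 36.8 and 36.5 CPM against 8.45, 10.5 and 14.9 CPM, without overlap (log2 1.84 ± 0.58, edgeR adjusted p = 0.0871, and 0.00581 in the fit of the 6 libraries).

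miR-196b-5p, in an exon of Hoxa9 (chr6:52230129-52230150, minus strand), showed the same split from its near copy. It held 74.8, 60.6 and 98 CPM in vascular and 2.87, 0.795 and 2.26 CPM in tracheal cells. The 2 ranges were far apart, a 39.8-fold difference (log2 5.31 ± 0.70, edgeR adjusted p = 3.51e-05). miR-196a-5p is encoded near Hoxb9 (chr11:96265187-96265208, intergenic, plus strand) and in an intron of Hoxc5 (chr15:102973365-102973386, plus strand). It held 251.2, 180.2 and 250.7 CPM in vascular and 87.5, 81.2 and 86.4 CPM in tracheal cells. These values did not overlap, but the difference was not called (log2 1.42 ± 0.61, edgeR adjusted p = 0.179, and 0.00568 in the fit of the 6 libraries). Relative to miR-196a-5p, miR-196b-5p stood at 29.8 to 39.1% in the vascular libraries and at 0.979 to 3.28% in the tracheal libraries. The seed they share summed to 305 CPM in vascular and 87.0 CPM in tracheal cells, a ratio of 3.51.

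miR-615-5p lies in an intron of Hoxc5 (chr15:103014926-103014947, plus strand). It had 123, 167 and 191 counts in the vascular libraries (8.62, 10.5 and 16.2 CPM) and 1, 2 and 1 counts in the tracheal libraries. Only traces were present in tracheal cells. The ratio of the pooled counts, scaled by mature tags and TMM factors as for all such ratios below, was 63.6 (95% interval 24.7 to 234, counting error only). The log2 fold change was 5.91 ± 0.68 (edgeR adjusted p = 7.13e-06). The lowest member, miR-10b-3p, was read at under 1 CPM in vascular cells and at 0 in all 3 tracheal libraries (edgeR adjusted p = 0.138). miR-196b-3p, which was too low to be tested, had 2, 7 and 1 counts in the vascular and 0 in the tracheal libraries. ISMC took a middle place for miR-10a-5p (mean 1992 CPM), miR-10b-5p (62.3 CPM) and miR-196b-5p (52.3 CPM), and lay above both for miR-615-5p (16.9 CPM).

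**Figure D2:**
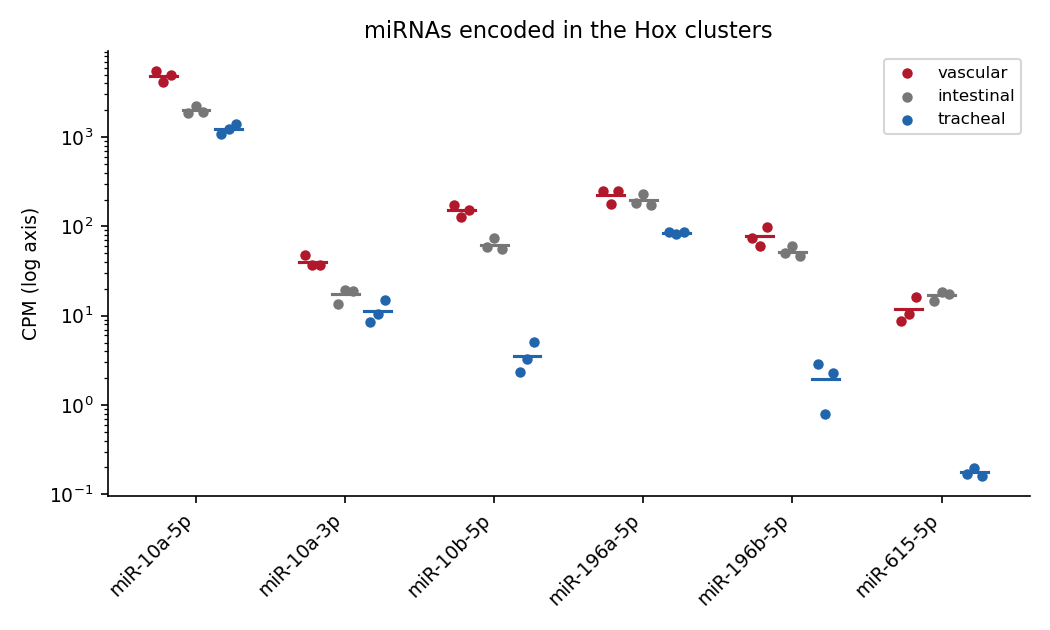
Each point is 1 library, with CPM on a log axis, for 6 of the 7 tested Hox-cluster miRNAs in vascular (red), intestinal (grey) and tracheal (blue) smooth muscle cells, and the bar is the mean of 3 libraries. miR-10b-3p is left out because it is at 0 in tracheal cells, and for each of the 6 shown the 3 vascular points lie above the 3 tracheal points.

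The endothelial miRNA miR-126a was higher in vascular cells on both strands. miR-126a-3p, encoded in an exon of Egfl7 (chr2:26591402-26591423, plus strand), held 3646, 2964 and 3738 CPM in vascular and 251.4, 217.5 and 144.6 CPM in tracheal cells. All vascular libraries lay above all tracheal libraries, a 16.9-fold difference (log2 4.08 ± 0.61, edgeR adjusted p = 0.000135), and ISMC lay between at a mean of 1241 CPM. miR-126a-5p, its other strand, held 13.9, 10.2 and 5.52 CPM against 1.35, 1.99 and 0.324 CPM, again without overlap (log2 2.96 ± 0.64, edgeR adjusted p = 0.00788); this call was lost without vascular library 1 or tracheal library 3 (highest adjusted p 0.0583). Both tested members of the 4 entries of the endothelial list were thus called higher in vascular cells, against 1.18% of all tested miRNAs. Their sum ranged from 2970 to 3740 CPM in vascular and from 145 to 253 CPM in tracheal libraries. Of the untested ones, miR-126b-3p had 26 counts over the vascular and 3 over the tracheal libraries and miR-126b-5p was at 0. In bulk samples, fewer cells of a type and less RNA per cell cannot be told apart, here as for every miRNA below that marks a cell type.

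Markers of blood cells were measured beside it. The sum of the blood cell list ranged from 2240 to 2770 CPM in vascular and from 783 to 1390 CPM in tracheal libraries, and none of its 4 tested members was called. Most of that sum was miR-155-5p, found in activated immune cells and also in other cell types, with 2733, 2688 and 2066 CPM in vascular and 1038, 996.9 and 620.7 CPM in tracheal cells. Its groups did not overlap, with a log2 fold change of 1.5 ± 0.49 (edgeR adjusted p = 0.0960, and 0.00724 in the fit of the 6 libraries). The red cell miRNA miR-451a went the other way, with 6.38, 12.9 and 124.6 CPM in vascular and 332.1, 204.4 and 146.5 CPM in tracheal cells. Vascular library 3 came close to the tracheal libraries, and the difference was not called (log2 -2.25 ± 0.94, edgeR adjusted p = 0.170, and 0.238 in the fit of the 6 libraries). The white cell miRNAs were low: miR-142a-3p had 4, 4 and 3 counts in vascular and 0 in tracheal libraries, miR-223-3p stayed at or under 4.07 CPM and miR-150-5p at or under 45.7 CPM. The last was higher in vascular cells (log2 1.11, edgeR adjusted p = 0.142, and 0.0458 in the fit of the 6 libraries). In that fit 2 of the 4 were called higher in vascular cells, against 9.32% of all miRNAs, and 0 lower. For 3 of the 4 every vascular library lay above every tracheal one, as in 21.9% of all tested miRNAs, and 1 lay the other way. The part of endothelial or blood cells in these differences was not tested.

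miR-204-5p, an abundant miRNA of the retinal pigment epithelium and the choroid plexus that also occurs in mesenchymal cells, lies in an intron of Trpm3 (chr19:22750610-22750631, plus strand). It held 212.4, 179.6 and 227.0 CPM in vascular and 16.2, 16 and 7.76 CPM in tracheal cells. The types were widely separated, by 15.4-fold (log2 3.95 ± 0.59, edgeR adjusted p = 0.000135). Its other strand, miR-204-3p, held 9.18, 11.3 and 5.35 CPM against 1.35, 2.49 and 1.62 CPM without overlap (log2 2.22 ± 0.78, edgeR adjusted p = 0.125, and 0.00931 in the fit of the 6 libraries). The near copy miR-211-5p, which differs from miR-204-5p by A17U, was at 2.91 CPM or less in all 6 libraries.

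The miR-146 family, which is induced by inflammatory NF-kB signalling and lowers it by acting on its adaptor proteins, split by member. miR-146a-5p (chr11:43374435-43374456, intergenic, minus strand) held 367.3, 327.0 and 367.9 CPM in vascular and 77.5, 73.7 and 74.4 CPM in tracheal cells. The libraries of each type were close together and the types far apart, by 4.71-fold (log2 2.24 ± 0.57, edgeR adjusted p = 0.0281). The call was lost when any 1 of the 6 libraries was left out (highest adjusted p 0.104) and kept in the fit of the 6 libraries (adjusted p = 0.000247). miR-146b-5p, with the same seed, held 41.3, 33.0 and 38.3 CPM in vascular and 73.8, 75.1 and 67.6 CPM in tracheal cells. All tracheal libraries lay above all vascular ones (log2 -0.94 ± 0.81, edgeR adjusted p = 0.510, and 0.00974 in the fit of the 6 libraries). miR-146b-5p therefore stood at 10.1 to 11.2% of miR-146a-5p in vascular libraries and at 90.9 to 102% in tracheal libraries, and the seed summed to 392 and 147 CPM.

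The remaining called miRNAs that were higher in vascular cells were miR-369-5p, described with its region below, and miR-148a-5p, the minor strand of miR-148a. miR-148a-5p had 7, 12 and 42 counts in the vascular and 0, 1 and 0 counts in the tracheal libraries. Vascular library 3 held most of them, and the ratio of pooled counts was 32.3 (95% interval 5.58 to 1300, counting error only; edgeR adjusted p = 0.0317). The call was lost without vascular library 3 and without each of the tracheal libraries (highest adjusted p 0.165).

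**Figure D3:**
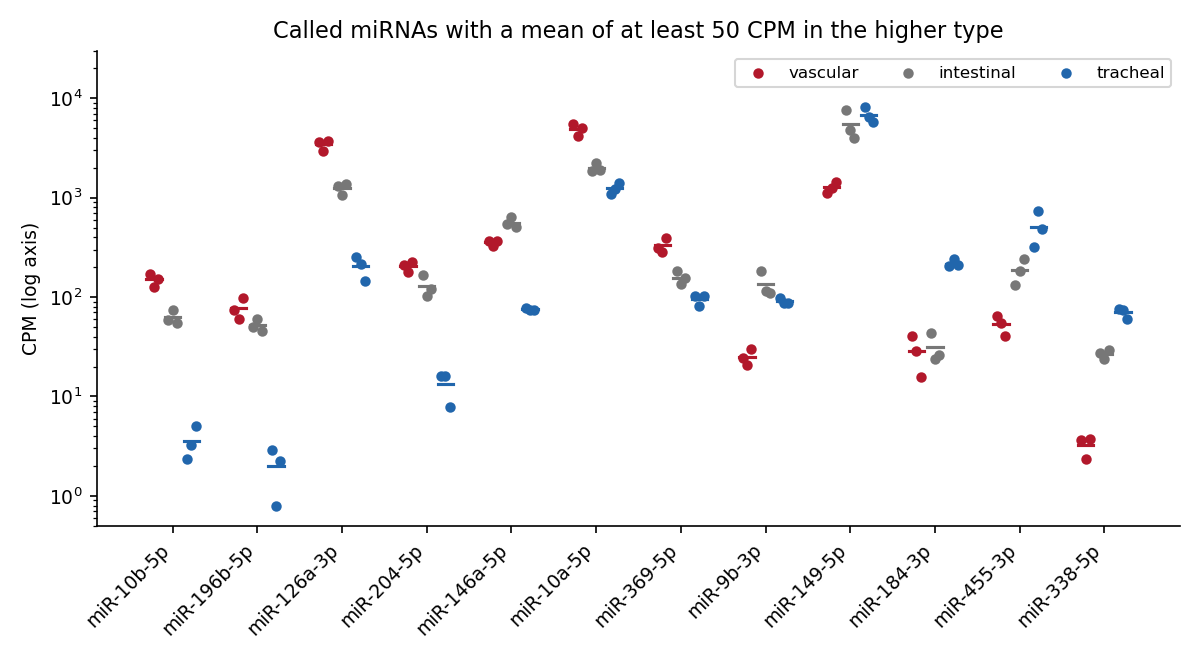
Each point is 1 library, with CPM on a log axis, for the 12 called miRNAs with a mean of at least 50 CPM in the higher type, in vascular (red), intestinal (grey) and tracheal (blue) cells, and the bar is the mean of 3 libraries. The 7 miRNAs on the left are higher in vascular and the 5 on the right higher in tracheal cells, and no vascular point overlaps a tracheal one.

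Among the 18 miRNAs higher in tracheal cells, miR-149-5p was by far the most abundant. It is encoded in an intron of Gpc1, which encodes the heparan sulphate proteoglycan glypican (chr1:92850381-92850403, plus strand). It held 1116, 1241 and 1452 CPM in vascular and 8090, 6456 and 5775 CPM in tracheal cells. Every tracheal library lay above every vascular one, a 5.33-fold difference (log2 -2.42 ± 0.41, edgeR adjusted p = 0.000709), and ISMC was near the tracheal level at a mean of 5443 CPM. miR-149-3p, the other strand, held 6.59, 6.50 and 3.48 CPM against 20.95, 30.02 and 24.9 CPM, also without overlap (log2 -2.19 ± 0.57, edgeR adjusted p = 0.0317). That call was lost in 7 of 18 other settings, among them 5 that left out 1 library (highest adjusted p 0.0958).

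Both strands of miR-455, which sits in an intron of the cartilage collagen gene Col27a1, were higher in tracheal cells. miR-455-3p (chr4:63256904-63256924, plus strand) held 63.8, 54.6 and 40.8 CPM in vascular and 321.1, 726.5 and 489.1 CPM in tracheal cells. The tracheal libraries varied among themselves, yet the lowest was well above the highest vascular library, and the difference was 9.65-fold (log2 -3.27 ± 0.45, edgeR adjusted p = 5.32e-05). miR-455-5p held 1.26, 1.45 and 1.27 CPM against 10.3, 9.94 and 6.63 CPM, without overlap (log2 -2.74 ± 0.55, edgeR adjusted p = 0.00436). The other cartilage marker, miR-140, did not share this: miR-140-3p held 520.2, 409.8 and 327.7 CPM in vascular and 200.9, 380.8 and 180.7 CPM in tracheal cells. Its ranges overlapped (log2 0.72 ± 0.45, edgeR adjusted p = 0.342), as did those of miR-140-5p (log2 0.91 ± 0.47, edgeR adjusted p = 0.259). The cartilage list as a whole summed to 674 to 1200 CPM in vascular and 707 to 1430 CPM in tracheal libraries, and the part of cartilage cells was not tested.

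miR-338-5p and miR-184-3p were low in vascular cells and well measured in tracheal cells. miR-338-5p, in an intron of the neural kinase gene Aatk (chr11:120014816-120014837, minus strand), held 3.64, 2.34 and 3.73 CPM in vascular and 75.7, 73.7 and 60.5 CPM in tracheal cells. The 2 types were far apart, by 21.5-fold (log2 -4.43 ± 0.56, edgeR adjusted p = 1.9e-05). miR-338-3p, the strand usually described as the guide, had 0, 0 and 1 counts in vascular and 18, 15 and 1 counts in tracheal libraries. Tracheal library 3 and vascular library 3 had the same single count, so their CPM differed through depth alone, and the ratio of pooled counts was 64.3 (95% interval 10.8 to 2610, counting error only; edgeR adjusted p = 0.0172, up to 0.105 when 1 library was left out). miR-184-3p, known from the corneal and other epithelia and from nerve cells (chr9:89802263-89802284, intergenic, minus strand), held 40.6, 28.9 and 15.7 CPM in vascular and 204.1, 239.3 and 208.5 CPM in tracheal cells. No library overlapped with the other type, and the difference was 7.64-fold (log2 -2.93 ± 0.46, edgeR adjusted p = 0.000243), with ISMC at the vascular level (mean 31.3 CPM).

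miR-9-5p, known from neural progenitors and neurons, and miR-9b-3p were both higher in tracheal cells. miR-9b-3p held 24.7, 20.9 and 29.8 CPM in vascular and 98.7, 86.8 and 87.7 CPM in tracheal cells, without overlap (3.62-fold, log2 -1.86 ± 0.40, edgeR adjusted p = 0.00788). miR-9-5p held 7.57, 6.63 and 7.38 CPM against 24.8, 31.7 and 25.1 CPM, also without overlap (3.78-fold, log2 -1.92 ± 0.47, edgeR adjusted p = 0.0216). RefSeq places the 2 on opposite strands of the same 3 loci, on chromosomes 3, 7 and 13, so they are complementary, and it is not known here whether the counting used the strand. The call of miR-9b-3p was lost without vascular library 2 and that of miR-9-5p without any 1 of the vascular libraries, and both were lost when tags of all classes set the library size (highest adjusted p over all settings 0.0588 and 0.105). Of the 5 tested members of the neural list only miR-9-5p was called, against 2.13% of all tested miRNAs called higher in tracheal cells. The median of the 5 was -1.21, with 2 above 0. For 3 of them every tracheal library lay above every vascular one, as in 17.6% of all tested miRNAs. The neuronal miR-124-3p was at 3.24 CPM or less in all 6 libraries. The list summed to 45.6 to 136 CPM in vascular and 67.4 to 97.8 CPM in tracheal libraries. That sum includes miR-7b-5p, which was counted unevenly, with 1110, 498 and 0 counts in the 3 vascular libraries, so its vascular range is not reliable.

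miR-499-5p, from an intron of the slow and cardiac myosin gene Myh7b, was called on values that differed widely among the tracheal libraries. It held 0.350, 1.07 and 1.70 CPM in vascular and 44.9, 1.79 and 9.38 CPM in tracheal cells. Tracheal library 1 stood far above the rest and tracheal library 2 was next to the vascular range (log2 -4.15 ± 1.11, edgeR adjusted p = 0.0402), and the call was lost in 12 of 18 other settings. The same library held the highest miR-1a-3p (15.2 CPM against 1.83 or less in the other 5) and 14 counts of the cardiac miR-208b-3p, which was at 0 in the other 5. Of the 6 tested members of the striated muscle list only miR-499-5p was called, against 2.13% of all tested miRNAs called higher in tracheal cells. None of the 6 had a fold change above 0, and their median was -1.18. The list summed to 654 to 846 CPM in vascular and 663 to 1000 CPM in tracheal libraries. Nearly all of that sum was miR-206-3p, which held 837.2, 758.5 and 646.0 CPM against 921.7, 653.1 and 865.6 CPM. These ranges overlapped (log2 -0.12 ± 0.69, edgeR adjusted p = 0.949).

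Several further miRNAs that were called higher in tracheal cells were of low level. miR-504-3p held 4.42, 4.17 and 3.90 CPM in vascular and 44.4, 22.8 and 36.2 CPM in tracheal cells (edgeR adjusted p = 0.0238), and miR-383-5p 0.631, 0.695 and 1.87 CPM against 8.28, 7.16 and 15.5 CPM (edgeR adjusted p = 0.00542). Neither overlapped between the types; miR-504-3p lost its call without any library except tracheal library 2 (highest adjusted p 0.111), and miR-383-5p without vascular library 2 (0.0556). miR-92b-5p, the minor strand of a member of the miR-25 family, held 8.55, 10.4 and 10.5 CPM against 54.9, 25.8 and 32.0 CPM (edgeR adjusted p = 0.0317, up to 0.174 over the settings). The separation in miR-92b-5p was clear in every library, while its abundant strand miR-92b-3p was not called (log2 -0.62 ± 0.44, edgeR adjusted p = 0.406). miR-6392-5p had 0, 0 and 1 counts against 22, 7 and 9 (ratio 71.8, 95% interval 12.1 to 2910, counting error only; edgeR adjusted p = 0.00788), and miR-6958-5p had 6, 18 and 10 against 33, 24 and 21 (edgeR adjusted p = 0.0317, lost in 10 of 18 settings).

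The other 3 called entries belong to a miRNA cluster of the X chromosome that is known from the testis. miR-470-5p held 5.05, 5.56 and 8.57 CPM in vascular and 22.3, 17.5 and 65.3 CPM in tracheal cells (log2 -2.45 ± 0.53, edgeR adjusted p = 0.00788), and the entry shared by miR-465a-3p, miR-465b-3p and miR-465c-3p held 2.94, 3.28 and 5.01 CPM against 14.0, 11.4 and 31.2 CPM (log2 -2.33 ± 0.53, edgeR adjusted p = 0.0110). In both, tracheal library 3 was the highest and no vascular library reached a tracheal one. Without vascular library 2 or without tracheal library 3 both calls were lost (highest adjusted p over all settings 0.0588 and 0.0707). miR-471-3p had 2, 1 and 2 counts against 8, 7 and 14 (edgeR adjusted p = 0.0317, 0.178 at most). In the same series the mean level of miR-470-5p was 54800 CPM for PTM, 55000 CPM for Sertoli and 17500 CPM for germ cells, beside 35.04 CPM for tracheal cells. The part of RNA from those libraries or cells in the tracheal values was not tested.

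The Dlk1-Dio3 region of chromosome 12 is imprinted and expresses a large group of miRNAs from the maternal chromosome, along the noncoding transcripts Meg3, Rian and Mirg. Its miRNAs were shifted towards vascular cells, though 1 of 91 tested members (of 105 entries) was called in the fit of all libraries (1.18% of all miRNAs were called in this direction) and none was called lower. Of the 91, 84 had a fold change above 0 and the median was 0.88, against 0.01 over all tested miRNAs. In 56 of the 91 (61.5%) every vascular library lay above every tracheal library, as in 21.9% of all tested miRNAs, and 1 lay the other way. In the fit of the 6 libraries 24 of 88 tested members (27.3%, against 9.32% of all) were called higher in vascular cells and none lower. The region took 9.69 ± 0.969% of mature tags in vascular and 7.71 ± 0.706% in tracheal cells. Its median lay between 0.71 and 1.48 over all settings. Neighbouring hairpins of such a cluster share a transcript and are not independent.

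The called member was miR-369-5p, in an intron of Mirg (chr12:109743431-109743452, plus strand). It held 313.9, 286.9 and 390.7 CPM in vascular and 101.4, 81.6 and 102.2 CPM in tracheal cells. The 2 types were clearly apart, by 3.48-fold (log2 1.8 ± 0.41, edgeR adjusted p = 0.0110), but leaving out any library other than vascular library 2 took the adjusted p above 0.05 (0.0877 at most). The 2 most abundant members had overlapping ranges. miR-127-3p, which is antisense to the imprinted Rtl1 gene, held 44050, 49500 and 48500 CPM against 48720, 35370 and 41310 CPM (log2 0.18 ± 0.43, edgeR adjusted p = 0.850). miR-433-3p held 7977, 8688 and 10260 CPM against 12270, 9744 and 7009 CPM (log2 -0.11 ± 0.46, edgeR adjusted p = 0.924). Next came miR-411-5p with 6214, 5345 and 6419 CPM against 3596, 2807 and 3521 CPM. All of its vascular values lay above the tracheal ones (log2 0.86 ± 0.47, edgeR adjusted p = 0.287, and 0.0393 in the fit of the 6 libraries).

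By position, 88 of the 91 could be placed. The 24 members before Mir379, which lie around Meg3 and Rtl1 and include miR-127 and miR-433, had a median of 0.57, with 21 above 0 and 4 of 24 called in the fit of the 6 libraries. The 62 members from Mir379 onwards, along Mirg, had a median of 0.89, with 60 above 0 and 19 of 60 called in that fit. The difference between these 2 stretches was not tested. The 2 entries of miR-1247, at the far end in Dio3os, had a median of -0.44, and miR-1247-5p held 1.05, 1.20 and 1.78 CPM in vascular and 6.42, 3.68 and 2.10 CPM in tracheal cells. It was the 1 member whose tracheal libraries all lay above the vascular ones (log2 -1.59 ± 0.58, edgeR adjusted p = 0.137). The 42 members with a mean of at least 50 CPM had a median of 0.64 and the 46 below it 1.01, against 0.22 and -0.01 among all tested miRNAs of these levels.

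**Figure D4:**
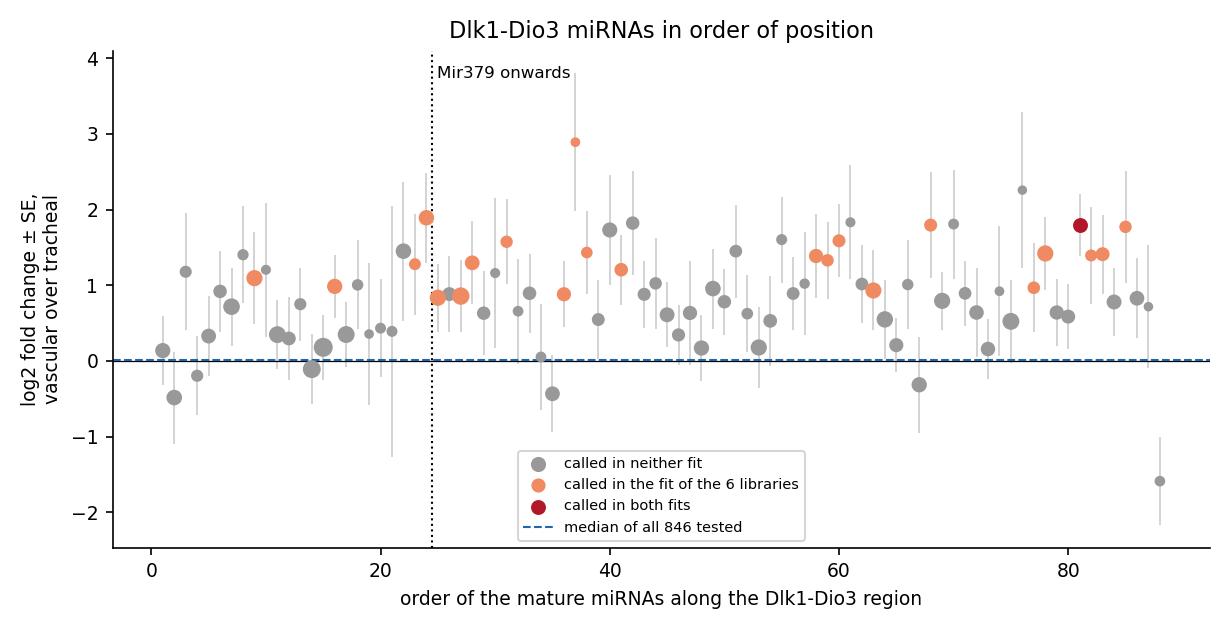
Each point is 1 of 88 Dlk1-Dio3 miRNAs in order along the chromosome, with its log2 fold change, vascular over tracheal, and its standard error from the fit of 21 libraries, and the point size grows with the mean CPM. Most points lie above 0, the dashed line at 0.01 is the median of all 846 tested miRNAs, and the 1 point at the right end below -1 is miR-1247-5p.

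The miRNAs linked to smooth muscle dedifferentiation, the switch from contraction to growth, were not called in the fit of all libraries (0 of 8 in either direction), while the fit of the 6 libraries called 2 higher and 1 lower in vascular cells (9.32% and 9.76% of all miRNAs in that fit). miR-31-5p, which promotes vascular smooth muscle growth in the rat, held 9174, 9599 and 8234 CPM in vascular and 2479, 2893 and 2906 CPM in tracheal cells. The libraries of each type lay close together, well apart from the other type (log2 1.71 ± 0.57, edgeR adjusted p = 0.0982, and 0.000611 in the fit of the 6 libraries). Its strand partner miR-31-3p had a log2 fold change of 1.55 ± 0.58 (edgeR adjusted p = 0.142, and 0.00467 in that fit). miR-222-3p held 5670, 5225 and 6078 CPM in vascular and 8675, 8734 and 6979 CPM in tracheal cells, the reverse order without overlap (log2 -0.52 ± 0.59, edgeR adjusted p = 0.618, and 0.0387 in that fit). Its cluster partner miR-221-3p overlapped (log2 -0.16 ± 0.62, edgeR adjusted p = 0.911), and miR-21a-5p, the most abundant of the list, held 18390, 17380 and 14060 CPM against 11540, 13190 and 11270 CPM, with vascular values above tracheal ones but no call in either fit (log2 0.47 ± 0.48, edgeR adjusted p = 0.582, and 0.136 in the fit of the 6 libraries).

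Markers of epithelium, a possible companion of tracheal muscle, were measured in both types. The epithelial list, the miR-200 family with miR-203 and miR-205, summed to 11.9 to 13.5 CPM in vascular and 6.42 to 13.8 CPM in tracheal libraries, with 0 of 10 called, and miR-200c-3p made up most of it. The miR-34b, miR-34c and miR-449 list of ciliated airway cells summed to 719 to 919 and 768 to 794 CPM, with 0 of 5 called. miR-449a-5p, a miRNA of multiciliated cells, held 14.4, 17.2 and 28.5 CPM in vascular and 47.0, 28.8 and 81.5 CPM in tracheal cells, values that did not overlap but nearly touched (log2 -1.39 ± 0.54, edgeR adjusted p = 0.144, and 0.0487 in the fit of the 6 libraries). No count of miR-449b or of either miR-449c strand was found in the 6 libraries.

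The miR-132 and miR-212 list, induced by CREB signalling from a shared transcript, had the lowest median of the 30 lists, -1.29, with 0 of 4 called and 3 of 4 called higher in tracheal cells in the fit of the 6 libraries, against 9.76% of all miRNAs tested there. miR-212-3p held 50.4, 53.5 and 47.4 CPM in vascular and 134.5, 115.7 and 129.5 CPM in tracheal cells. The libraries of each type agreed closely and did not overlap (log2 -1.33 ± 0.52, edgeR adjusted p = 0.144, and 0.00337 in that fit). miR-132-5p did not overlap either, with 27.8, 22.3 and 21.2 CPM against 50, 54.4 and 51.4 CPM (log2 -1.13 ± 0.51, edgeR adjusted p = 0.209, and 0.00627 in that fit).

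In 8 of the 9 tested members of the X-linked miR-322, miR-503, miR-351 and miR-450 list every vascular library lay above every tracheal one, as in 21.9% of all tested miRNAs, and the median was 0.91, but none was called in either fit. The most abundant were miR-351-5p, with 167.5, 162.0 and 284.3 CPM in vascular and 161.0, 126.3 and 109.5 CPM in tracheal cells, and miR-322-5p, with 68.8, 61.8 and 65.1 CPM against 35.3, 37.4 and 43.8 CPM. Neither overlapped, although miR-351-5p of vascular library 2 and tracheal library 1 nearly met (edgeR adjusted p = 0.562 and 0.388).

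The remaining lists held few calls. The miR-17 list, of miR-17 and its paralogous clusters, had 1 of 18 called and a median of 0.21. The called member, miR-92b-5p above, comes from a locus of its own on chromosome 3, outside these clusters. The miR-130, miR-301, miR-148 and miR-152 list had 1 of 10, miR-148a-5p above, and a median of 0.70. Of all tested miRNAs, 2.13% were called higher in tracheal and 1.18% higher in vascular cells. No member was called in the fit of all libraries in the lists of miR-30 (11 tested, median 0.63), miR-15, miR-16, miR-195 and miR-497 (8, median 0.35), miR-99, miR-100 and miR-125 (11, median 0.21), or hypoxia-induced miR-210 (2, median -0.59). The same held for miR-181 (8 tested, median -0.44), miR-183, miR-96 and miR-182 (5, median -0.58), miR-218 (3, median -0.48), miR-199 and miR-214 (5, median -0.12), miR-29 (7, median -0.05) and miR-193 and miR-365 (7, median -0.05), whose medians turned positive when tags of all classes set the library size, which moved the median of all tested miRNAs to 0.63. It also held for miR-23, miR-27 and miR-24 (11 tested, median 0.05), for let-7 and miR-98 (20, median 0.16) and for the other imprinted loci H19, Igf2, Mest and Gnas (7, median 0.18). Over all settings these 3 medians, those of the dedifferentiation list (0.24) and of the miR-34b, miR-34c and miR-449 list (0.06), and that of the epithelial list (-0.07) crossed 0. In the fit of the 6 libraries these lists held calls in both directions. Higher in vascular cells, as were 9.32% of all miRNAs tested in that fit, were 2 of 11 members of the miR-23, miR-27 and miR-24 list. So were 1 of 16 of the miR-17 list, 1 of 8 of miR-130 and 1 of 7 of miR-193. The miR-30 and miR-99 lists had 1 of 11 each. Higher in tracheal cells, as were 9.76% of all, were 2 of 8 of the miR-181 list, 2 of 5 of miR-183 and 2 of 16 of miR-17. Those of the miR-17 list were the 2 strands of miR-92b. The let-7 list had 1 of 19, the miR-29 and miR-193 lists 1 of 7 each and the other imprinted list 1 of 5. No list was tested as a set. miR-181a-5p held 20550, 18530 and 21410 CPM in vascular and 36310, 35150 and 26700 CPM in tracheal cells, without overlap (log2 -0.70 ± 0.33, edgeR adjusted p = 0.213, and 0.0150 in the fit of the 6 libraries).

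**Figure D5:**
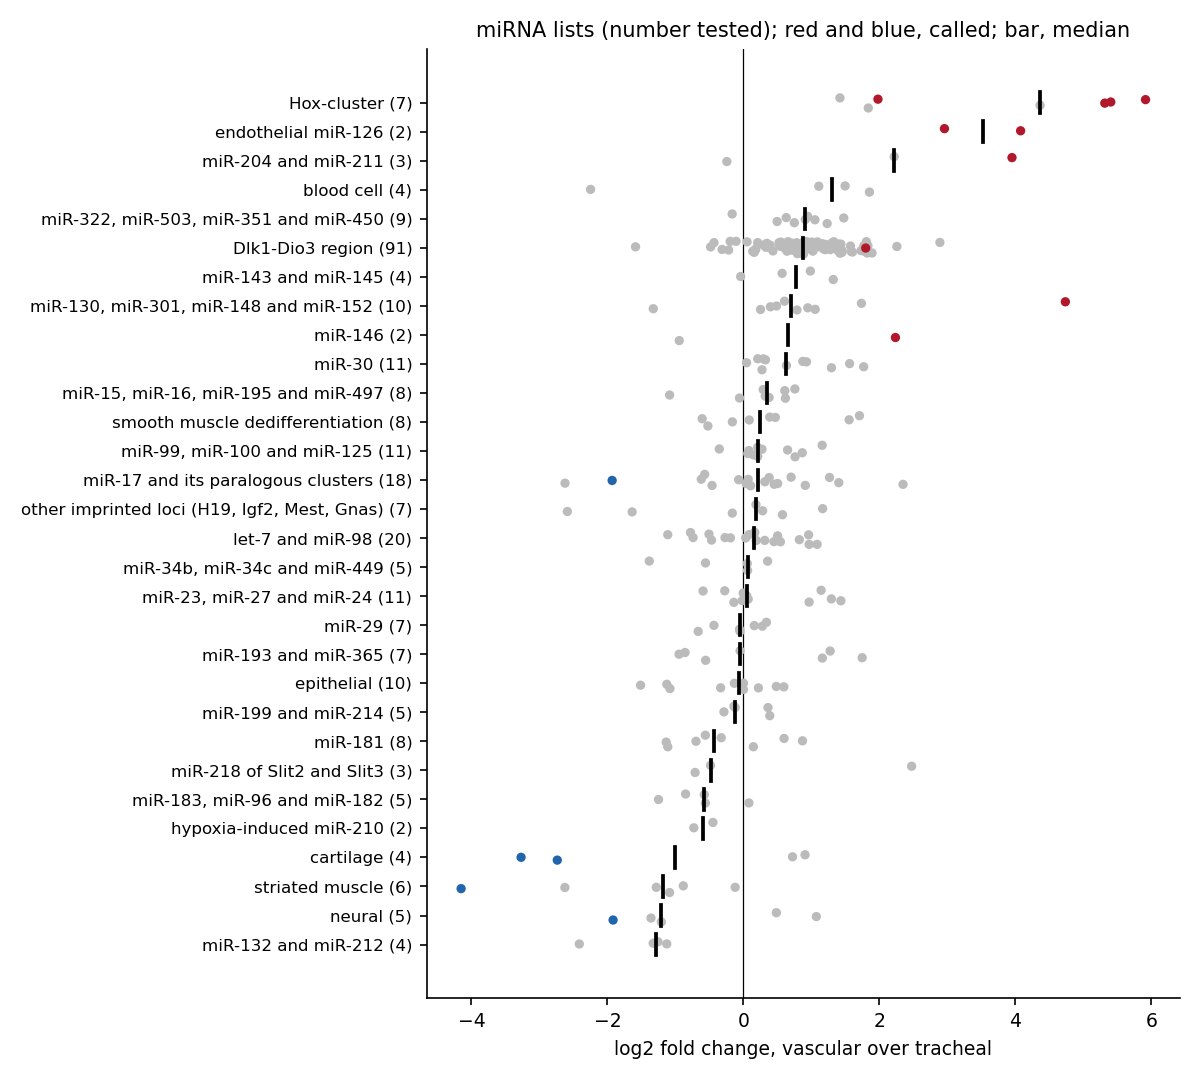
Each point is a tested member of 1 of 30 lists of miRNAs, with its log2 fold change, vascular over tracheal, from the fit of 21 libraries; red and blue points were called higher in vascular and in tracheal cells, the black bar is the median of the list, and the number tested is in brackets. The Hox-cluster list stands at the top, where its bar at 4.36 is miR-10b-3p, which is at 0 in tracheal cells, and 15 of the 28 called miRNAs fall in a list.

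The most abundant miRNAs were largely shared, with 6 in common among the first 8 of each type and 18 among the first 20, and none of the first 8 of either type was called. let-7b-5p led both, at 15.2% of mature tags in vascular and 20.6% in tracheal cells, followed by let-7c-5p at 12.8% and 15.1%. The let-7 and miR-98 list together took 38.2 ± 3.55% and 47.0 ± 4.36% of mature tags. These shares include let-7e-5p, which was counted unevenly as given below, so their means and SDs are not fully reliable. miR-22-3p, which promotes the contractile state of vascular smooth muscle cells in mouse studies, ranked 3 in vascular cells (5.84%) and 8 in tracheal cells (2.88%). It held 68980, 53630 and 44880 CPM in vascular and 22770, 30770 and 29600 CPM in tracheal cells. The groups did not overlap, with a log2 fold change of 1.01 ± 0.40 (edgeR adjusted p = 0.147, and 0.0137 in the fit of the 6 libraries). let-7d-3p showed the opposite order, with 18990, 15510 and 20970 CPM in vascular and 50950, 36150 and 32830 CPM in tracheal cells, again without overlap (log2 -1.11 ± 0.44, edgeR adjusted p = 0.147, and 0.00892 in that fit).

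The balance of the 5p and 3p strands of a hairpin was compared next, since a ratio within a library does not depend on scaling. None of 136 hairpins (0.0%) with a mean of at least 20 counts per strand was called by limma on log2((5p count + 0.5)/(3p count + 0.5)), with 14 at an unadjusted p under 0.05 and a lowest adjusted p of 0.302. None was called under any other setting of this test.

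The intestinal cells placed the vascular and tracheal values on a wider scale. The mean of ISMC lay between the other 2 for 22 of the 28 called miRNAs and above both for the other 6, which were miR-615-5p, miR-146a-5p, miR-149-3p, miR-9-5p, miR-9b-3p and miR-6392-5p. In the fit of all libraries, 11 of 846 miRNAs (1.3%) differed between vascular and intestinal cells and 8 of 846 (0.946%) between tracheal and intestinal cells. The 11 were all higher in intestinal cells (1.3%), as were 7 of the 8 (0.827%), the other being higher in tracheal cells (0.118%). With the 9 smooth muscle libraries alone, 89 of 714 (12.5%) differed between vascular and intestinal cells, 4.76% of the 714 higher in vascular and 7.7% higher in intestinal cells. Between tracheal and intestinal cells 38 of 714 (5.32%) differed there, 1.82% higher in tracheal and 3.5% higher in intestinal cells. The 3 comparisons share libraries, so their counts are set side by side without a test. Of the 28 called miRNAs, 10 were called in each of 18 other settings and none changed direction. These were miR-10b-5p, miR-196b-5p, miR-615-5p, miR-126a-3p and miR-204-5p, higher in vascular cells, and miR-149-5p, miR-455-3p, miR-455-5p, miR-184-3p and miR-338-5p, higher in tracheal cells.

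Some abundant entries were counted unevenly within a type, with fewer than 10 counts in one library and more than 1000 in another. This held for 5 entries in the 2 types, let-7b-3p, let-7e-5p, miR-1981-5p, miR-3074-5p and miR-7b-5p, and none of them was called. let-7e-5p had 355210, 2 and 251790 counts in the vascular and 1, 1 and 146445 counts in the tracheal libraries, so its level cannot be read from them. The same limit applies to its part in the let-7 and miR-98 list.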

How the data were processed

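Small RNA was measured in primary mouse cells, with 3 libraries for each of 7 types. The authors deposited 1 table of 61628 entries with raw read counts and TPM per library. The deposited counts were whole and entered the tests unchanged. The deposited TPM, which the authors scaled to all tags of a library, served only to obtain the total number of tags. Bowtie2 and the build mm10 are named in the submitters' processing notes. The sources used here do not give adapter removal, the database version, strand use or the rule for tags that fit several entries.

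Of 1556 mature entries, the 846 with at least 10 counts in at least 3 of 21 libraries were tested with edgeR 4.0.16 (R 4.3.3), using TMM scaling, 1 coefficient per type and the robust quasi-likelihood test of vascular minus tracheal cells. Calls were made at an adjusted p under 0.05 (Benjamini-Hochberg over the 846). Depth was 6.03 to 14.6 M mature tags per library in the 2 types. Fold changes are given with a standard error derived from the test. It is the size of the log2 fold change divided by the square root of the quasi-likelihood F statistic. It therefore holds no information beyond that of the test, also where a type has very few counts. Strand ratios were tested with limma 3.58.1, and shares of tags with exact permutation tests. DESeq2 1.42.0 and limma voom were alternatives, beside other scalings, filters, subsets of libraries and the replicate number as a block. The steps were tested on simulated data. These had a smaller dispersion than the fits of the real counts, so they do not show how well the calls hold here. No 2 libraries of a type agreed within sampling noise (chi-square per degree of freedom 535 to 1260). Intervals cover counting error only. Sequences and positions came from RefSeq (GRCm38.p6, 24 of the 28 called entries matched) and gene features from the GENCODE annotation of the same build.

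The miRNAs compared and the 30 lists were chosen with earlier results of these data known. Candidates for naming were the called miRNAs of at least 50 CPM (at most 15 per direction). The 8 miRNAs with the highest mean CPM in either type were candidates too. So were, within every list, the called members and the 4 highest in level. All called candidates are described, but many uncalled ones are not, among them miR-99b-5p, miR-652-3p, miR-34a-5p and miR-24-3p. The uncalled candidates that are described were picked with their values known and not by a rule. Further miRNAs that were no candidates were also chosen after their values were seen. These are the called miR-149-3p, miR-338-3p, miR-383-5p, miR-465a/b/c-3p, miR-470-5p, miR-471-3p, miR-504-3p, miR-6392-5p and miR-6958-5p, the unevenly counted entries other than miR-7b-5p, and miR-10a-3p, miR-10b-3p, miR-196b-3p, miR-126b, miR-142a, miR-208b, miR-449b, miR-449c, miR-31-3p and miR-1247-5p.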

Additional observations from a re-analysis of the deposited data

How the results depend on the processing

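The number of called miRNAs depended on which libraries set the spread and on the test. Against 28 calls, DESeq2 called 114 (2 further adjusted p were not given), limma voom 45, the 6 vascular and tracheal libraries alone 129 and the 9 smooth muscle libraries alone 141. Tags of all classes as library size gave 46 calls, 82.6% of them higher in vascular cells against 35.7% in the reported fit, with the median of all tested miRNAs at 0.63. Library totals of mature tags gave 15 calls in each direction (50% higher in vascular cells), and voom 48.9%. RLE scaling (36 calls), totals without the 10 most abundant miRNAs (33), no filter (31), a filter on the 6 libraries (29) and removal of 9 unevenly counted entries (30, chosen after seeing the data) stayed within 1.5 times the reported count. Leaving out 1 library gave 14 to 29 calls: 15, 14 and 20 without vascular library 1, 2 and 3, and 18, 29 and 16 without tracheal library 1, 2 and 3. The comparisons with intestinal cells rose from 11 to 89 and from 8 to 38 calls with 9 libraries, a setting chosen after seeing the data, as were the list counts in the fit of the 6 libraries and the list medians over members read in both types (epithelial -0.23 against -0.07, Hox cluster 3.65 against 4.36). Deviations of same-numbered vascular and tracheal libraries from the mean of their type correlated at -0.20, 0.36 and 0.32. Those of differently numbered libraries correlated at -0.44 to 0.12. The deviations within a type depend on each other, so these values cannot tell whether the replicate numbers pair the libraries. With the replicate number as a block there were 26 calls, 24 of them among the 28, and 102 with the 6 libraries alone. The difference in the share of mature tags ranged from 17.8 to 25.2 points when 1 library was left out. No called miRNA changed direction. Of the values of single miRNAs over all settings, 2155 kept their side of the threshold, 96 gained and 92 lost a call. Some uncalled values among the 2155 changed sign, such as let-7a-5p from a log2 fold change of 0.08 to -0.06 with RLE scaling. By list, 441 medians moved by less than their spread between replicates while 99 moved further. No strand ratio was called in any setting.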
